A study of Mus musculus with 16 samples.

Results

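The genes described here are 35 members of the SR protein network of mouse liver: 12 SR splicing factors, the 4 CLK kinases with the related kinase Prpf4b, and 18 partner proteins of the early spliceosome and of nuclear speckles. They were taken as a list of symbols, matched to the Ensembl identifiers of the deposited count table, and all 35 were found among its 55487 genes and were among the 14553 genes that passed the filter on low counts. The list was drawn up with earlier results of the same libraries known, from how these genes stood in the 4 groups, so their levels, folds and calls below are a description and carry no test.

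Whole liver RNA was sequenced from wild type C57BL/6J mice aged 12 weeks, in 16 libraries. There were 4 libraries from mice in room air, 4 from sustained hypoxia, 4 from intermittent hypoxia and 4 from overlap hypoxia, which joins the sustained and the intermittent pattern. Intermittent hypoxia serves as a model of sleep apnoea, and the study asked what the combined exposure does. The sources used here do not give oxygen levels, cycle times, length of exposure, sex or hour of collection. The label of each sample says liver while the protocol text names another tissue, and the libraries carried hepatocyte genes (8 markers summing to 70923 to 107907 CPM). Of photoreceptor markers, Gnat1 stood at 2.80 to 10.6 CPM, Sag also had counts in 16 of 16 libraries, Crx and Pde6a had counts in 5 and 4, and Rcvrn was at 0 in all. Each label description holds a number of its own that may be an animal's, but the labels do not say so. Errors below rest on the spread between libraries, within a group for CPM and pooled over the 4 groups for log2 differences.

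SR proteins bind exons through RNA recognition motifs and recruit the U1 and U2 particles through domains rich in arginine and serine. SRPK and CLK kinases phosphorylate those domains and so set where SR proteins sit, in speckles or on nascent transcripts. Many genes of this network limit their own output through poison exons or introns that stay in the nuclear transcript, so the count of reads on such a gene need not track its protein.

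Promoter windows are shown for 5 members, picked by name after their values were seen. Clasrp, Ccnl2, Snrnp70 and Srsf4 were among the members that stood highest in intermittent hypoxia relative to room air, and Srsf3 was the member called lower. Srrm2 and Luc7l2, which stood above Snrnp70 and Srsf4, are not shown. The windows come from RefSeq (GRCm38.p6), read 5′ to 3′ on the gene's strand and ended at the GENCODE gene start, with motif matches in capitals. Motifs were searched on both strands, and matches that overlap were all kept. The GC box, bound by factors of the Sp family, was searched as GGGCGG. The ETS motif was searched as CCGGAAG, and the CCAAT box by the letters of its name. For the hypoxia response element the cores were ACGTG, and as a second form of it GCGTG. The TATA box was searched as TATAAA. For the cyclic AMP response element the letters were TGACGTCA.
Clasrp, chr7:19604487-19604736, minus strand: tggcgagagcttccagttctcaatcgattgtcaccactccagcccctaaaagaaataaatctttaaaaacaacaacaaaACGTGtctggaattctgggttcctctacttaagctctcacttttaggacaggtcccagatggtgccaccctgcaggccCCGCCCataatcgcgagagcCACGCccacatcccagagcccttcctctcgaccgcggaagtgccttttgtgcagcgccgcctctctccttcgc
Ccnl2, chr4:155812239-155812488, plus strand: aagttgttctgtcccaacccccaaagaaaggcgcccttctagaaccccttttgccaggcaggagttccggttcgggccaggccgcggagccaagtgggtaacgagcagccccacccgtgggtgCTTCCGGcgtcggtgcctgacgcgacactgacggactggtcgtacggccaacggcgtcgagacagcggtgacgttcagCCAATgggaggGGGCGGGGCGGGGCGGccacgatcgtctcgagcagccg
Snrnp70, chr7:45395743-45395992, minus strand: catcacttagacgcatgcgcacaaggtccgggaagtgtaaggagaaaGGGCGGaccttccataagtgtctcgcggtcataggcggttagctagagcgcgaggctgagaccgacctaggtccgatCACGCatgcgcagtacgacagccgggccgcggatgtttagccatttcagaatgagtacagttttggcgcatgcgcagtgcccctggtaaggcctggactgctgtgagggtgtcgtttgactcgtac
Srsf4, chr4:131873387-131873616, plus strand: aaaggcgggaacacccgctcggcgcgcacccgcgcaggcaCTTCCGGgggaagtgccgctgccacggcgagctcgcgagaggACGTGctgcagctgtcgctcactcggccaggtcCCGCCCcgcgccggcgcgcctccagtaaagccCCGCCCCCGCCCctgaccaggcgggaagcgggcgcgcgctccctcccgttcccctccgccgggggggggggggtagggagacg
Srsf3, chr17:29032410-29032627, plus strand: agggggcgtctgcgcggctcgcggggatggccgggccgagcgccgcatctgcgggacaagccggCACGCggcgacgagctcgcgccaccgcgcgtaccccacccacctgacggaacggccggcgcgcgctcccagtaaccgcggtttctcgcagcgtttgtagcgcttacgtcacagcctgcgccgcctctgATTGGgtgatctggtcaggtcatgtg

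Of the 35 members 33 had a RefSeq window, 49 windows in all, since some genes have several start sites whose windows can overlap. Over the 250 bases before each start, GGGCGG was found in 63.3% of the member windows, in 32.7% of all 32851 windows of the table and in 53.95% of the 13454 windows of tested genes. CCGGAAG was found in 30.6% of member windows, against 6.91% of all windows and 12.7% of those of tested genes. TGACGTCA was found in 6.12% of member windows, 1.55% of all and 2.36% of those of tested genes. Hypoxia response cores were common everywhere: ACGTG was in 24.5% of member windows and 20.99% of those of tested genes, and GCGTG in 51.0% and 42.1%. CCAAT was in 32.7% of member windows and 35.4% of those of tested genes, and TATAAA in 10.2% and 7.31%. These matches are letters in a window and say nothing of binding.

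Library totals ran from 10940275 expected counts in overlap hypoxia replicate 3 to 64789635. Ribosomal RNA took 18.5 to 34.8% of counts in intermittent hypoxia, 2.53 to 16.8% in overlap hypoxia, 1.57 to 10.2% in room air and 1.55 to 2.77% in sustained hypoxia. The mitochondrial share was 6.23 to 11.7%, 2.54 to 7.17%, 1.18 to 2.75% and 1.43 to 1.73% in the same order. Exact two-sided permutation tests gave p = 0.0286 for the intermittent libraries against room air on both measures, the smallest p that 4 against 4 libraries allow, and 0.15 after adjustment over 42 such tests. Markers of Kupffer cells, the resident macrophages, were detected in all libraries for 8 of 8 genes, with none at 0, and summed to 76.5 to 135.2 CPM in room air, 54.3 to 91.8 in sustained, 33.3 to 56.9 in intermittent and 34.2 to 39.4 in overlap hypoxia. In whole tissue, fewer cells of a type and less RNA per cell cannot be told apart.

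The members as a group stood highest in intermittent hypoxia and next in overlap hypoxia. Their summed level was 1209 ± 98.9 CPM in intermittent, 863.7 ± 139.8 CPM in overlap, 705.1 ± 63.7 CPM in room air and 614.9 ± 43.3 CPM in sustained hypoxia (mean ± SD, n = 4 each). The intermittent mean was the highest of the 4 groups for 32 of 35 members, the overlap mean lay between room air and intermittent hypoxia for 29, and the sustained mean was the lowest for 22. Shares of all genes with these orders are not given here, so the counts only describe genes that were chosen on their levels. In edgeR's quasi-likelihood fit, 27 members were higher and 1 was lower in intermittent hypoxia than in room air at a Benjamini-Hochberg adjusted p under 0.05, where 18.9% of all genes tested were higher and 18.3% lower. In overlap hypoxia 11 were higher and 0 lower (all genes 3.41% and 2.89%). In sustained hypoxia 0 of 35 were called by edgeR, against 0.0481% of all genes, with 3 higher and 7 lower at an unadjusted p under 0.05 (11.5% of all genes in either direction). There DESeq2 called 0 members, and 0.653% of all genes higher and 0.557% lower. For limma-voom it was 1 member lower, and 0.845% of all genes higher and 0.859% lower. All 3 comparisons share the room air libraries.

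The median log2 difference of the members from room air was 0.82 in intermittent, 0.38 in overlap and -0.17 in sustained hypoxia, beside 0.03, 0.03 and -0.01 for all genes tested. Every intermittent library lay above every room air library for 25 members and below for 1, with 17.4% and 18% of all genes doing so. Every overlap library lay above for 8 (6.58% of all genes), and every sustained library below for 4 (4.32%), Srsf3, Srsf6, Prpf4b and Ddx17. The differences ran from -0.63 to 2.58 in intermittent hypoxia, and 13 members were at least 2-fold higher. The share of all genes at that fold is not given here.

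**Figure D1:**
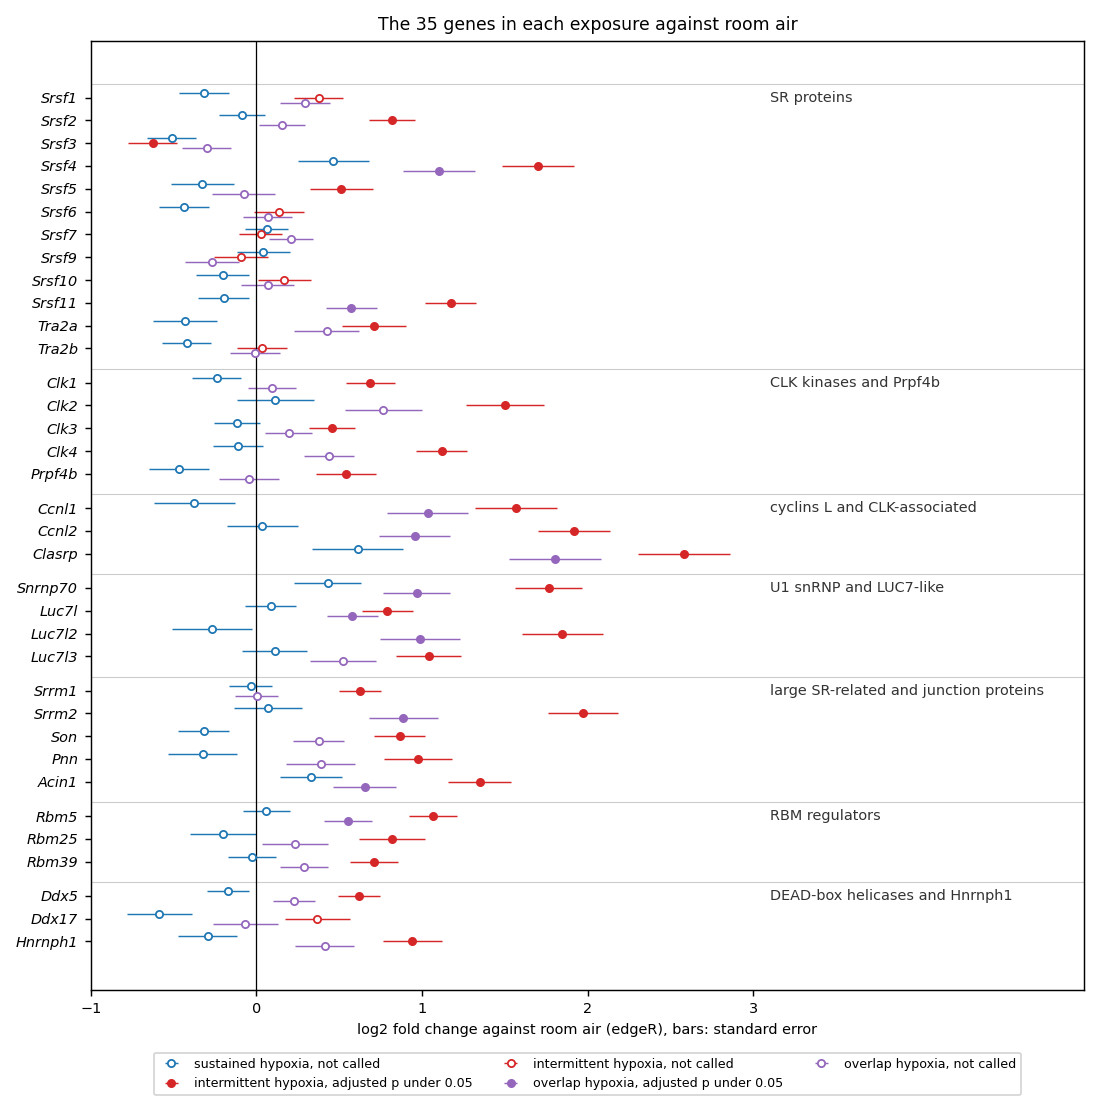
Log2 fold change of each of the 35 genes in each exposure against room air (horizontal axis) with its standard error as a bar, genes grouped by role, filled points for adjusted p under 0.05. In intermittent hypoxia 27 filled points lie right of 0 and Srsf3 left of it, in overlap hypoxia 11 lie right of 0, and in sustained hypoxia every point is open.

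Among the 12 SR proteins, which bind exons directly, the picture was mixed: in intermittent hypoxia 5 were higher (Srsf2, Srsf4, Srsf5, Srsf11 and Tra2a), Srsf3 was lower and 6 were not called. Srsf4 stood at 6.79, 7.21, 6.84 and 6.70 CPM in room air replicates 1 to 4, at 10.8, 12.3, 8.52 and 6.36 CPM in sustained hypoxia, at 18.5, 26.8, 23.6 and 20.6 CPM in intermittent hypoxia and at 17.5, 12.1, 20.6 and 9.46 CPM in overlap hypoxia. Srsf4 (ENSMUSG00000028911, chr4:131873617-131901706, plus strand) was high in every intermittent and overlap library relative to room air, and its sustained libraries overlapped room air. In log2 units these are differences of 1.70 ± 0.22 (intermittent), 1.10 ± 0.22 (overlap) and 0.46 ± 0.21 (sustained) from room air. Of the 50-base words in Srsf4 transcripts, 39.5% also occur in Gm12992, an antisense gene, and without the strand setting the counts of that pair cannot be told apart.

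Srsf11 stood at 19.5, 13.9, 19.3 and 17.5 CPM in room air replicates 1 to 4, at 15.6, 15.3, 17.7 and 12.6 CPM in sustained hypoxia, at 35.4, 43.9, 40.002 and 39.0 CPM in intermittent hypoxia and at 31.5, 19.95, 29.7 and 23.5 CPM in overlap hypoxia. Srsf11, an SR protein with a role at 3′ splice sites (ENSMUSG00000055436, chr3:158010473-158036639, minus strand), separated in order, with every intermittent library above every overlap library and these above both remaining groups. For Srsf11 the log2 difference from room air was 1.17 ± 0.16 in intermittent hypoxia, 0.57 ± 0.15 in overlap hypoxia and -0.20 ± 0.15 in sustained hypoxia.

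Srsf3 stood at 36.2, 37.1, 45.4 and 36.8 CPM in room air replicates 1 to 4, at 31.9, 24.8, 24.4 and 28.0 CPM in sustained hypoxia, at 31.6, 20.0002, 22.4 and 26.4 CPM in intermittent hypoxia and at 30.3, 27.9, 30.3 and 37.6 CPM in overlap hypoxia. Srsf3 is the smallest SR protein, and its loss from mouse hepatocytes is known to disturb liver maturation (ENSMUSG00000071172, chr17:29032628-29043373, plus strand). Every intermittent and every sustained library lay below every room air library, while overlap replicate 4 reached the room air range. Srsf3 thus had log2 differences from room air of -0.63 ± 0.15, -0.30 ± 0.15 and -0.51 ± 0.15 in the intermittent, overlap and sustained groups. The call of lower was in intermittent hypoxia, and 10.04% of Srsf3's words occur in other genes, Gm12355 and Gm9761 among them.

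Among the rest of the SR proteins, Srsf2, known for binding exonic enhancers, had a room air mean of 29.4 ± 2.80 CPM, with 27.7 ± 3.79 for sustained, 51.8 ± 10.3 for intermittent and 32.7 ± 1.89 for overlap hypoxia. Its words overlap those of the opposite-strand neighbours Mettl23 and Mfsd11 by 20.7%. Srsf5 stood at 43.8 ± 13.8 CPM in room air and 62.5 ± 5.47 in intermittent hypoxia, and without room air replicate 1, at 64.3 CPM the highest of its group, its log2 difference of 0.51 was 0.75. Tra2a, a homologue of fly transformer 2, had 6.92 ± 1.000 and 11.3 ± 1.04 CPM. The 6 without a call in intermittent hypoxia, Srsf1, Srsf6, Srsf7, Srsf9, Srsf10 and Tra2b, had log2 differences from -0.09 (Srsf9) to 0.38 (Srsf1). Tra2b, the paralogue of Tra2a, stood at 17.5 ± 3.76 CPM in room air and 17.9 ± 1.95 in intermittent hypoxia. Srsf7 had 19.5 ± 2.08, 20.4 ± 2.70, 19.9 ± 2.18 and 22.6 ± 1.998 CPM in room air, sustained, intermittent and overlap hypoxia, within the spread of its libraries.

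The CLK kinases, which phosphorylate SR proteins, and Prpf4b, a kinase of the tri-snRNP, were higher in intermittent hypoxia for 5 of 5 members. In overlap hypoxia edgeR called 0 of 5 (2 higher at an unadjusted p under 0.05, 1 called by DESeq2 and 2 by limma-voom), with log2 differences from -0.05 (Prpf4b) to 0.77 (Clk2). Of all genes there, 22.8% had an unadjusted p under 0.05 in either direction. DESeq2 called 5.19% of all genes higher and 4.74% lower, and limma-voom 4.27% and 5.17%. Clk4 stood at 17.1, 13.0, 14.1 and 13.8 CPM in room air replicates 1 to 4, at 14.3, 15.0, 13.7 and 10.54 CPM in sustained hypoxia, at 27.7, 36.0, 31.6 and 30.6 CPM in intermittent hypoxia and at 24.5, 16.6, 16.5 and 20.6 CPM in overlap hypoxia. Clk4 (ENSMUSG00000020385, chr11:51261730-51281766, plus strand) was high in all intermittent libraries, its overlap libraries lay below these and above the sustained ones, and overlap replicates 2 and 3 fell within the room air range. Relative to room air, Clk4 differed on the log2 scale by 1.12 ± 0.15 in intermittent, 0.44 ± 0.15 in overlap and -0.11 ± 0.15 in sustained hypoxia.

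Clk2 stood at 4.23, 3.09, 2.36 and 3.19 CPM in room air replicates 1 to 4, at 3.53, 4.52, 2.26 and 3.54 CPM in sustained hypoxia, at 8.73, 8.93, 11.3 and 7.56 CPM in intermittent hypoxia and at 6.86, 3.60, 6.12 and 5.40 CPM in overlap hypoxia. Clk2, also known in liver as an insulin-regulated kinase that dampens glucose production (ENSMUSG00000068917, chr3:89164795-89176921, plus strand), had every intermittent library above all others, while its overlap and sustained libraries overlapped room air. In log2 units these are differences of 1.501 ± 0.23 (intermittent), 0.77 ± 0.23 (overlap) and 0.12 ± 0.23 (sustained) from room air. Clk1 had 31.2 ± 5.25 CPM in room air and 50.3 ± 5.98 in intermittent hypoxia, Clk3 18.8 ± 2.79 and 25.7 ± 2.49, and Prpf4b 11.5 ± 1.35 and 16.8 ± 4.16. Clk3's 0.46 turned to -0.06 when gene length and GC content were modelled as offsets, and its words overlap the neighbour Edc3 by 14.1%. Per kilobase of annotated exon, the level of Clk1 in room air was 3.83 CPM, above Clk4 at 2.50, Clk3 at 2.22 and Clk2 at 0.607, and in intermittent hypoxia the same 4 stood at 6.18, 5.43, 3.05 and 1.72 CPM per kilobase.

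The proteins that partner CLK and CDK11 kinases in speckles included Clasrp, the member with the largest difference between intermittent hypoxia and room air. Clasrp, the CLK4-associating SR protein, and the cyclins L, Ccnl1 and Ccnl2, were higher in intermittent hypoxia (3 of 3) and in overlap hypoxia (3 of 3). Clasrp stood at 1.19, 1.13, 0.605 and 0.720 CPM in room air replicates 1 to 4, at 1.25, 1.85, 0.985 and 1.47 CPM in sustained hypoxia, at 4.35, 7.09, 5.81 and 4.74 CPM in intermittent hypoxia and at 3.87, 2.60, 3.93 and 2.48 CPM in overlap hypoxia. Clasrp (ENSMUSG00000061028, chr7:19581035-19604486, minus strand) separated intermittent, overlap and room air libraries without overlap, and its sustained libraries overlapped room air. For Clasrp the log2 difference from room air was 2.58 ± 0.28 in intermittent hypoxia, 1.80 ± 0.28 in overlap hypoxia and 0.61 ± 0.28 in sustained hypoxia. It was also the least abundant member, at 0.120 CPM per kilobase of exon in room air and 0.722 in intermittent hypoxia.

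Ccnl2 stood at 27.1, 19.7, 21.4 and 22.5 CPM in room air replicates 1 to 4, at 19.3, 31.7, 20.5 and 21.4 CPM in sustained hypoxia, at 69.8, 103, 98.1 and 72.0 CPM in intermittent hypoxia and at 48.2, 27.6, 61.8 and 38.9 CPM in overlap hypoxia. Ccnl2 (ENSMUSG00000029068, chr4:155812489-155824543, plus strand) had every intermittent library above every other library, and overlap libraries all above room air, the lowest of them, replicate 2, by little. Ccnl2 thus had log2 differences from room air of 1.92 ± 0.22, 0.96 ± 0.21 and 0.04 ± 0.21 in the intermittent, overlap and sustained groups. Ccnl1 had means of 8.97 ± 3.09, 6.92 ± 1.39, 26.6 ± 2.67 and 18.4 ± 6.28 CPM in room air, sustained, intermittent and overlap hypoxia, with log2 differences of 1.57 ± 0.25 in intermittent and 1.03 ± 0.25 in overlap hypoxia.

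U1 particle components, which recognise the 5′ splice site, were higher in intermittent hypoxia for 4 of 4 members, Snrnp70 and the LUC7-like proteins Luc7l, Luc7l2 and Luc7l3, and in overlap hypoxia for all of these except Luc7l3. Snrnp70 stood at 8.15, 5.57, 4.61 and 4.11 CPM in room air replicates 1 to 4, at 7.70, 9.79, 6.18 and 6.48 CPM in sustained hypoxia, at 17.95, 21.6, 20.8 and 16.1 CPM in intermittent hypoxia and at 13.5, 9.93, 10.9 and 9.51 CPM in overlap hypoxia. Snrnp70, the U1 protein that SR proteins contact (ENSMUSG00000063511, chr7:45376453-45395742, minus strand), had overlap libraries above room air, reaching into the sustained range, and intermittent libraries above all. Relative to room air, Snrnp70 differed on the log2 scale by 1.77 ± 0.20 in intermittent, 0.97 ± 0.20 in overlap and 0.43 ± 0.20 in sustained hypoxia.

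Luc7l2 stood at 22.5, 16.1, 15.97 and 12.9 CPM in room air replicates 1 to 4, at 12.0, 17.0, 15.1 and 11.8 CPM in sustained hypoxia, at 49.7, 74.4, 61.2 and 57.5 CPM in intermittent hypoxia and at 47.9, 18.4, 39.9 and 28.1 CPM in overlap hypoxia. Luc7l2 (ENSMUSG00000029823, chr6:38551334-38609470, plus strand), a homologue of a yeast U1 protein, was high in every intermittent library, and its overlap libraries were spread widely, with replicate 2 inside the room air range. In log2 units these are differences of 1.85 ± 0.25 (intermittent), 0.99 ± 0.24 (overlap) and -0.27 ± 0.24 (sustained) from room air. Its words overlap those of Gm26699, on the opposite strand, and of other genes by 21.97%. Luc7l had 10.02 ± 0.810, 17.4 ± 3.38 and 15.0 ± 2.37 CPM in room air, intermittent and overlap hypoxia, and Luc7l3 had 6.90 ± 1.03, 14.2 ± 3.32 and 9.93 ± 2.43 CPM.

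**Figure D2:**
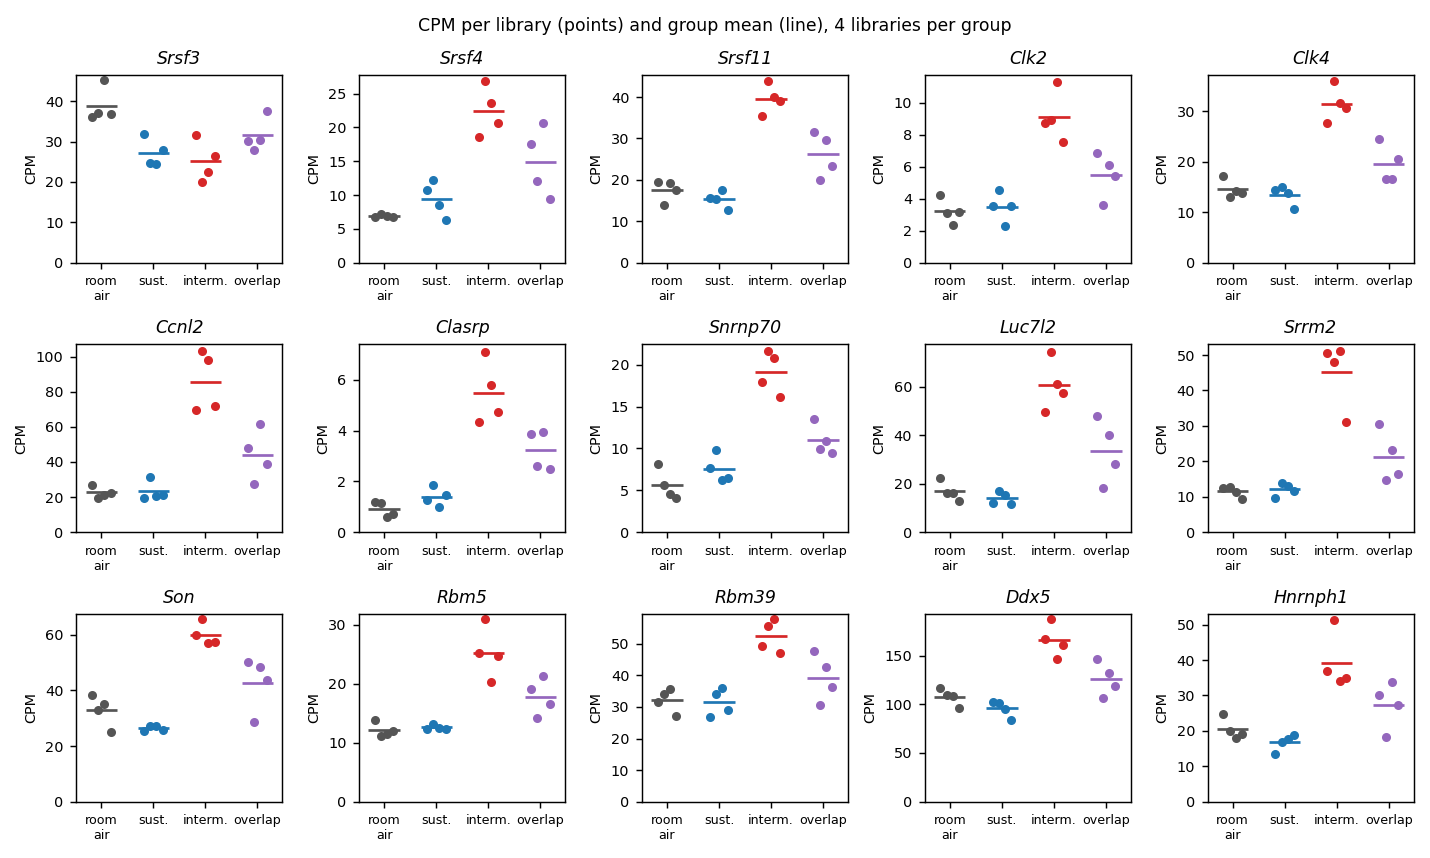
CPM (vertical axis, from 0) of 15 of the genes in each library as points, with the group mean as a line, for the 4 groups of 4 libraries. Intermittent hypoxia points lie above all room air points in every panel except that of Srsf3, where they lie below, and overlap hypoxia points are the most spread in several panels.

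The large scaffold and junction proteins were higher in intermittent hypoxia for 5 of 5 members: Srrm1 and Srrm2, coactivators rich in arginine and serine, Son, which with Srrm2 holds nuclear speckles together, Pnn, and Acin1, a protein deposited near exon junctions. In overlap hypoxia Srrm2 and Acin1 were higher. Srrm2 stood at 12.4, 12.8, 11.4 and 9.36 CPM in room air replicates 1 to 4, at 9.76, 13.9, 13.1 and 11.5 CPM in sustained hypoxia, at 50.4, 48.1, 51.0 and 31.0 CPM in intermittent hypoxia and at 30.6, 14.7, 23.3 and 16.5 CPM in overlap hypoxia. Srrm2 (ENSMUSG00000039218, chr17:23790532-23824741, plus strand) had all overlap libraries above room air and sustained hypoxia and all intermittent libraries above these, although intermittent replicate 4 lay close to overlap replicate 1. For Srrm2 the log2 difference from room air was 1.97 ± 0.21 in intermittent hypoxia, 0.89 ± 0.21 in overlap hypoxia and 0.07 ± 0.21 in sustained hypoxia.

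Son stood at 38.3, 33.0, 35.2 and 25.1 CPM in room air replicates 1 to 4, at 25.3, 27.2, 27.3 and 25.8 CPM in sustained hypoxia, at 59.8, 65.6, 57.0 and 57.3 CPM in intermittent hypoxia and at 50.2, 28.8, 48.4 and 43.9 CPM in overlap hypoxia. Son (ENSMUSG00000022961, chr16:91647506-91679221, plus strand) was high in every intermittent library, and its overlap libraries lay above every sustained library and overlapped room air. Son thus had log2 differences from room air of 0.86 ± 0.15, 0.38 ± 0.15 and -0.32 ± 0.15 in the intermittent, overlap and sustained groups. Acin1 had 6.39 ± 1.25, 16.3 ± 3.21 and 10.1 ± 1.94 CPM in room air, intermittent and overlap hypoxia. Pnn had 4.45 ± 0.851, 8.76 ± 1.75 and 5.81 ± 1.66 CPM, and Srrm1 had 9.24 ± 0.737, 14.3 ± 0.850 and 9.27 ± 0.770 CPM. In overlap hypoxia the log2 difference of Srrm1 from room air was 0.00 ± 0.13.

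RBM regulators were higher in intermittent hypoxia for 3 of 3 members, and Rbm5 in overlap hypoxia too. Rbm5 stood at 13.8, 11.1, 11.5 and 11.9 CPM in room air replicates 1 to 4, at 12.4, 13.2, 12.5 and 12.3 CPM in sustained hypoxia, at 25.2, 30.9, 20.4 and 24.7 CPM in intermittent hypoxia and at 19.1, 14.1, 21.4 and 16.6 CPM in overlap hypoxia. Rbm5, a regulator of apoptosis-gene splicing (ENSMUSG00000032580, chr9:107740371-107770996, minus strand), had overlap libraries above room air and sustained hypoxia and reaching the lowest intermittent library. Relative to room air, Rbm5 differed on the log2 scale by 1.06 ± 0.15 in intermittent, 0.55 ± 0.15 in overlap and 0.06 ± 0.14 in sustained hypoxia.

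Rbm39 stood at 31.5, 34.2, 35.6 and 27.2 CPM in room air replicates 1 to 4, at 26.8, 34.2, 36.0 and 29.0 CPM in sustained hypoxia, at 49.2, 55.6, 58.0 and 47.2 CPM in intermittent hypoxia and at 47.7, 30.5, 42.5 and 36.2 CPM in overlap hypoxia. Rbm39, a relative of the U2 auxiliary factor (ENSMUSG00000027620, chr2:156147239-156180238, minus strand), had intermittent libraries above room air and sustained hypoxia, and overlap libraries that overlapped all groups. In log2 units these are differences of 0.71 ± 0.15 (intermittent), 0.29 ± 0.14 (overlap) and -0.03 ± 0.14 (sustained) from room air. Rbm25, a U1-associated regulator, had 12.6 ± 1.49 CPM in room air and 22.3 ± 5.16 in intermittent hypoxia.

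Of the RNA helicases Ddx5 and Ddx17 and of Hnrnph1, which binds runs of G, 2 were higher in intermittent hypoxia, Ddx5 and Hnrnph1. In overlap hypoxia 0 were called by edgeR, DESeq2 or limma-voom, with 1 higher at an unadjusted p under 0.05 in edgeR (22.8% of all genes in either direction). Ddx5 stood at 117, 109.5, 108 and 96.1 CPM in room air replicates 1 to 4, at 103, 101, 95.5 and 83.4 CPM in sustained hypoxia, at 167, 188, 146 and 161 CPM in intermittent hypoxia and at 147, 107, 132 and 119 CPM in overlap hypoxia. Ddx5 (ENSMUSG00000020719, chr11:106780355-106789185, minus strand) had intermittent libraries above room air, with intermittent replicate 3 and overlap replicate 1 nearly level, and overlap libraries that overlapped room air. For Ddx5 the log2 difference from room air was 0.62 ± 0.13 in intermittent hypoxia, 0.23 ± 0.13 in overlap hypoxia and -0.17 ± 0.13 in sustained hypoxia. Ddx5 was the most abundant member per kilobase of exon, at 18.7 CPM in room air and 28.7 in intermittent hypoxia, and 14.6% of its words occur elsewhere, including in the small RNA genes inside it.

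Hnrnph1 stood at 24.8, 19.98, 18.1 and 19.0 CPM in room air replicates 1 to 4, at 13.4, 16.9, 17.8 and 18.7 CPM in sustained hypoxia, at 36.9, 51.2, 34.2 and 34.8 CPM in intermittent hypoxia and at 30.2, 18.1, 33.8 and 27.2 CPM in overlap hypoxia. Hnrnph1 (ENSMUSG00000007850, chr11:50376990-50386528, plus strand) was high in every intermittent library, with replicate 2 the highest, and its overlap libraries ran from the room air range to just under the intermittent one. Hnrnph1 thus had log2 differences from room air of 0.94 ± 0.18, 0.41 ± 0.18 and -0.29 ± 0.18 in the intermittent, overlap and sustained groups. Ddx17, the paralogue of Ddx5, had 43.3 ± 8.29, 28.9 ± 4.302, 55.9 ± 8.18 and 41.3 ± 13.1 CPM in room air, sustained, intermittent and overlap hypoxia, and was called in none of the comparisons with room air.

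Overlap hypoxia was also set against each single exposure. Against sustained hypoxia 3 members were higher, Srsf11 (0.77 ± 0.15, log2), Ccnl1 (1.41 ± 0.25) and Luc7l2 (1.26 ± 0.24), where 0.137% of all genes were higher. DESeq2 and limma-voom called 16 and 17 members higher, where they called 471 and 558 of all genes higher, against 20 by edgeR. Every overlap library lay above every sustained library for 13 members (5.23% of all genes), and the median difference was 0.49. Against intermittent hypoxia 11 members were lower (2.95% of all genes): Srsf2, Srsf11, Clk1, Clk4, Ccnl2, Snrnp70, Luc7l2, Srrm1, Srrm2, Acin1 and Rbm5. The differences were greatest for Srrm2 (-1.08 ± 0.21) and Ccnl2 (-0.96 ± 0.21), 15 members had every overlap library below every intermittent one (5.68% of all genes), and the median was -0.53.

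These counts turned on single libraries. Without overlap replicate 2, the library that was the lowest of its group for 24 of 35 members, 21 members were higher in overlap than in sustained hypoxia, and over all genes 843 were higher and 704 lower, against 20 and 4 with all libraries. Without sustained replicate 1, 2, 3 or 4, intermittent replicate 1 or 3, or overlap replicate 1 or 3, 0 members were higher. Over all genes 0 to 3 were higher in those fits. Without room air replicate 2 or 3, intermittent replicate 4 or overlap replicate 4 there was 1 member, and over all genes 2 to 17. Without room air replicate 4 there were 5 members, and over all genes 80. The 11 lower in overlap than in intermittent hypoxia became 0 without overlap replicate 4, 3 without intermittent replicate 2, 5 without overlap replicate 2 and 6 without intermittent replicate 3. Over all genes the 429 lower became 9, 107, 188 and 139 in the same order. Intermittent against sustained hypoxia gave 31 members higher and 0 lower (19.5% and 18.9% of all genes), a median of 1.00, and 31 members without overlap between the libraries (17.7% of all genes). The 4 not called in that comparison were Srsf3, Srsf7, Srsf9 and Srsf10.

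Against room air, the 11 members higher in overlap hypoxia became 2 without room air replicate 3, 3 without overlap replicate 1 or 3, 4 without room air replicate 4 and 5 without room air replicate 2. The share of all genes called higher fell too, from 3.41% to 0.624% without room air replicate 3. It was 1.02% without overlap replicate 1 and 0.922% without overlap replicate 3. Without room air replicate 4 it was 1.11%, and without room air replicate 2 it was 2.06%. Srsf4 and Clasrp were called in all 16 fits that left out a library. In intermittent hypoxia 24 to 28 members were higher in those fits, where 2109 to 2834 of all genes were higher. Of the 28 called members 25 were called in all 16 fits, and the matching share over all called genes is not given here. The exceptions were Srsf5 (8 of 16), Prpf4b (13 of 16) and Clk3 (15 of 16).

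The libraries of overlap hypoxia differed among themselves along the whole list. Averaged over the 35 members as log2(CPM + 0.5) relative to the room air mean, they stood at 0.61, 0.06, 0.50 and 0.32 in replicates 1 to 4. Replicate 2, with the lowest value, lay within the room air range of -0.10 to 0.17 and had the lowest ribosomal RNA share of the group, 2.53%. Intermittent libraries stood at 0.78, 1.01, 0.85 and 0.74, and sustained libraries at -0.17, 0.02, -0.12 and -0.19. Room air replicate 1, at 0.17, was the highest of its group for 22 members and also had the highest ribosomal RNA share of its group, 10.2%. Other libraries went the other way. Overlap replicate 4 had the highest share of its group, 16.8%, at a level of 0.32, below replicate 1 with 9.83% and 0.61. Intermittent replicate 3 had 34.8% at 0.85, below replicate 2 with 25.6% and 1.01.

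**Figure D3:**
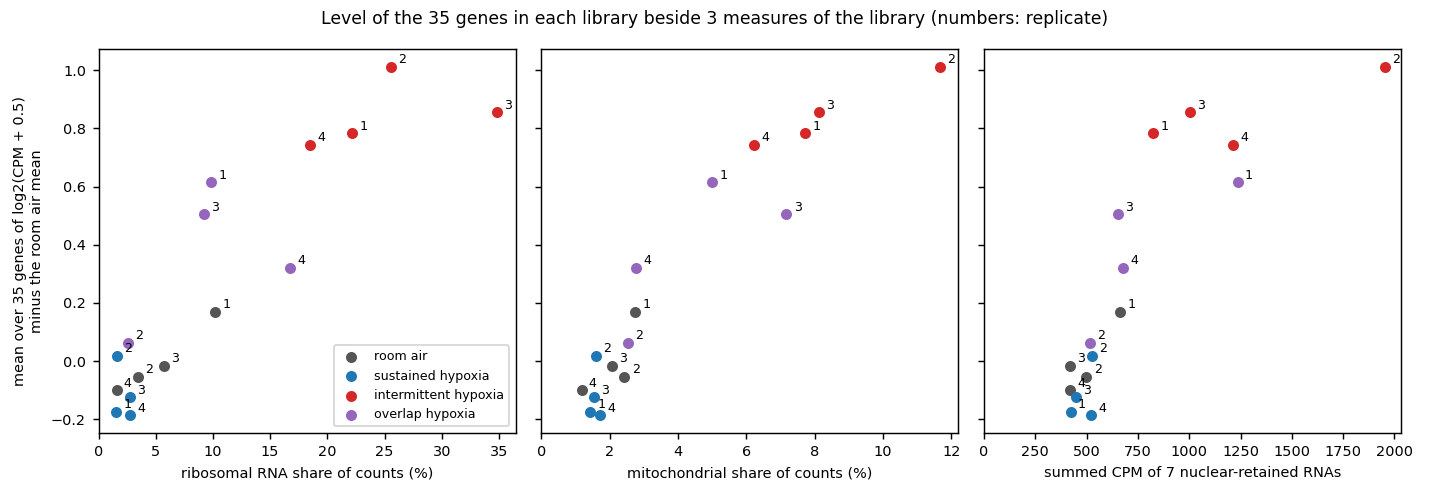
Mean over the 35 genes of log2(CPM + 0.5) minus the room air mean (vertical axis) in each library, against its ribosomal RNA share, its mitochondrial share (both % of counts) and the summed CPM of 7 nuclear-retained RNAs, coloured by group and numbered by replicate. The intermittent libraries are highest on the vertical axis, at 0.74 to 1.01, and lie at the right of the first panel, and overlap replicate 2 sits beside the room air and sustained libraries.

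By group mean, both shares followed the order of the members, highest in intermittent and next in overlap hypoxia, but within groups the order of the libraries differed. All intermittent libraries had ribosomal RNA shares above every library of the remaining groups, so the share and that exposure cannot be told apart. Their mitochondrial shares, 6.23 to 11.7%, also lay above every room air (1.18 to 2.75%) and sustained library (1.43 to 1.73%). In those comparisons that share and the exposure cannot be told apart either. Overlap replicate 3, at 7.17%, reached the intermittent range. With the ribosomal RNA share as a covariate 11 members were higher in intermittent hypoxia and 1 lower, and the median was 0.47, while calls over all genes went from 2744 higher and 2660 lower to 622 and 715. With the mitochondrial share as a covariate edgeR called 0, with 10 higher at an unadjusted p under 0.05 and a median of 0.21, and Prpf4b and Rbm25 turned to -0.13 and -0.12. Over all genes 5 were then higher and 3 lower, so the loss of calls was not particular to the members. In overlap hypoxia 3 members were called with the first covariate and 0 with the second, under which 4 were higher at an unadjusted p under 0.05, and calls over all genes went from 496 higher and 420 lower to 211 and 151 and to 9 and 11. Between the exposures, edgeR called 0 members with either covariate, and at most 25 of all genes higher or 12 lower. At an unadjusted p under 0.05, 15 (ribosomal RNA share) and 4 (mitochondrial share) were higher in intermittent than in sustained hypoxia, 6 and 2 higher in overlap than in sustained hypoxia, and 11 and 6 lower in overlap than in intermittent hypoxia. Without covariates, 46.9%, 20.5% and 25.3% of all genes passed that threshold in these comparisons, in either direction. No such share is given for the covariate fits, here or against room air, so these counts only describe the members. With offsets for gene length and GC content the median in intermittent hypoxia was 0.62, and 6 members rather than 11 were called in overlap hypoxia.

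A list of 7 transcripts known to be held in the nucleus, with Malat1, Neat1, Mlxipl and Nlrp6 among them, was measured beside the members. The list was chosen with earlier results of these data known, so its calls and p-values are a description and not independent evidence. Its summed level was 825.7 to 1955 CPM in intermittent, 516.8 to 1235 in overlap, 417.5 to 664.1 in room air and 422.3 to 527.9 in sustained hypoxia. In intermittent hypoxia 5 of 7 were higher and 0 lower, with a median log2 difference of 1.83, and in overlap hypoxia 2 of 7 were higher. Of all genes tested, 18.9% were higher and 18.3% lower in intermittent hypoxia, and 3.41% and 2.89% in overlap hypoxia. Nlrp6 rose by 2.61 ± 0.27 (adjusted p = 8.5e-06, edgeR) and Neat1, the scaffold RNA of paraspeckles, by 1.83 ± 0.41 (adjusted p = 0.00299) in intermittent hypoxia. Malat1, which sits in speckles, had 561.2 ± 441.9 CPM there and 113.7 ± 88.7 CPM in room air (adjusted p = 0.0789). Of the Kupffer cell markers 6 of 8 were lower in intermittent and 6 of 8 in overlap hypoxia. Of the 8 markers of sinusoidal endothelial cells 4 were lower in overlap hypoxia, where the 8 summed to 48.2 to 86.9 CPM against 102.2 to 127.2 in room air. In intermittent hypoxia 2 were higher and 1 lower, near the shares of all genes, with a sum of 113.1 to 128.5 CPM. Major urinary protein genes took 2.83 to 10.4% of counts in intermittent hypoxia, 11.7 to 20.5% in overlap hypoxia and 14.7 to 25.4% in room air. The part of these measures in the members' differences was not tested.

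What the members share in the annotation was looked at next. The choice of genes used their levels, and across all tested coding genes the differences in level varied with the annotation, as given below. The contrast of members with other genes is therefore a description and not independent of the choice. In GENCODE M21, 31 of 35 members had at least 1 transcript annotated with a retained intron, against 57.9% of the 12702 tested coding genes, with medians of 3 and 1 per gene. Transcripts marked for nonsense-mediated decay were annotated for 31 of 35 members and 28.3% of tested coding genes, with medians of 2 and 0. Members were also longer, with a median of 7278 exonic bases against 4402, had a median of 13 exons against 9, and had a lower GC content, 43.3% against 49.5%. Rbm5 had the most retained-intron transcripts, 13, followed by Srsf11 with 11, and Srsf9, Srsf10, Ddx17 and Hnrnph1 had 0.

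Across all tested coding genes, the share called higher in intermittent hypoxia was 14.9% of those with 0 such transcripts, 17.2% with 1 or 2, 24.4% with 3 or 4 and 35.4% with 5 or more. The share called lower was 19.6%, 21.2%, 19.5% and 14.6% in the same classes. Spearman's rank correlation across all tested coding genes between the log2 difference and the number of retained-intron transcripts was 0.09, below that with exonic length (0.33), exon number (0.24) and GC content (0.17). Genes are not independent replicates, long and much studied genes have more annotated transcripts, and all values come from the same libraries. The table holds counts per gene, so it does not show whether reads fell in introns.

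**Figure D4:**
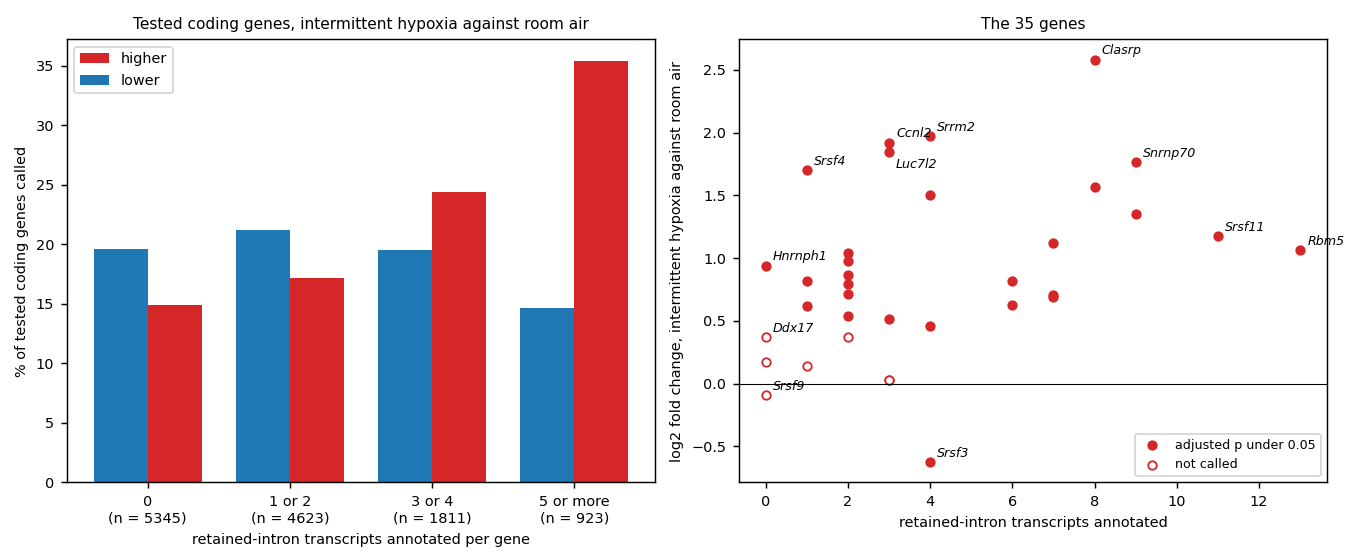
Left, percent of tested coding genes called higher or lower in intermittent hypoxia against room air (vertical axis) by the number of retained-intron transcripts annotated, with the number of genes n under each class. Right, log2 fold change of each of the 35 genes against that number, filled where called, drawn for reference only, since these genes were chosen on these values. On the left, the share called higher is 14.9% with 0 such transcripts and 35.4% with 5 or more.

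The rest of the splicing machinery was described from lists of related genes, 149 tested in all. These lists too were chosen with earlier results of these data known, so their calls and p-values are a description and not independent evidence. In intermittent hypoxia 41 of the 149 genes rose (27.5%) and 26 fell (17.4%), with a median log2 difference of 0.12. Of all genes 18.9% were higher and 18.3% lower. With offsets for gene length and GC content the counts were 29 and 30, with the ribosomal RNA share as a covariate 6 and 6, and with the mitochondrial share 0 and 0, which ended each call named in the following paragraphs. In overlap hypoxia 5 rose (3.36%) and 2 fell (1.34%), beside 3.41% and 2.89% of all genes. DESeq2 gave 12 and 4 (5.19% and 4.74% of all genes), the mitochondrial covariate 0 and 0, leaving out room air replicate 3 gave 0 and 0, room air replicate 4 1 and 1, overlap replicate 1 0 and 1, overlap replicate 2 11 and 3, and overlap replicate 3 0 and 2. In sustained hypoxia 0 were called, with 5 higher and 8 lower at an unadjusted p under 0.05 (11.5% of all genes), 0 called by DESeq2 and 1 lower by limma-voom. Of all genes, DESeq2 called 0.653% higher and 0.557% lower there, and limma-voom 0.845% and 0.859%.

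Of other SR-related proteins and SR kinases, 17 of 34 rose and 0 fell in intermittent hypoxia, with a median of 0.54. Sfswap, a splicing regulator homologous to the fly suppressor of white apricot, rose by 1.77 ± 0.24 (adjusted p = 2.97e-05, edgeR), from 2.74 ± 0.58 to 9.36 ± 1.94 CPM. Scaf1 rose by 1.70 ± 0.25 (adjusted p = 4.22e-05) and Srek1 by 1.56 ± 0.23 (adjusted p = 5.1e-05). In overlap hypoxia 3 rose, Sfswap (1.12 ± 0.24, adjusted p = 0.0129), Scaf1 (1.03 ± 0.25, adjusted p = 0.0206) and Rbm6 (0.84 ± 0.22, adjusted p = 0.028).

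Of core spliceosome genes 9 of 58 rose (15.5%) and 16 fell (27.6%) in intermittent hypoxia, with a median of -0.13. Sf3a2, a U2 component, rose by 1.92 ± 0.33 (adjusted p = 0.000227, edgeR) and Sf1, the branch point binding protein, by 1.54 ± 0.22 (adjusted p = 3.94e-05). Sf3b6, the branch point protein of the SF3B complex, fell by 1.22 (SE 0.14, adjusted p = 8.37e-06), from 36.4 ± 3.33 to 15.6 ± 3.18 CPM, and Snrpc, a U1 protein like Snrnp70, fell by 0.78 (SE 0.12, adjusted p = 0.000102). In overlap hypoxia Sf1 rose by 0.80 ± 0.21 (adjusted p = 0.0337) and Sf3b6 fell by 0.64 (SE 0.14, adjusted p = 0.0129).

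Among other hnRNPs and splicing regulators 12 of 41 rose (29.3%) and 3 fell (7.32%) in intermittent hypoxia. Ewsr1 rose by 1.10 ± 0.18 (adjusted p = 0.00011, edgeR), and Esrp2, an epithelial regulator of splicing in hepatocytes, by 0.79 ± 0.15 (adjusted p = 0.000542). Matr3, a nuclear matrix protein, fell by 0.72 (SE 0.15, adjusted p = 0.00109) and Hnrnpc by 0.61 (SE 0.12, adjusted p = 0.00051). Of exon junction and mRNA export genes 3 of 16 rose and 7 fell. Nxf1, the mRNA export receptor, rose by 1.297 ± 0.19 (adjusted p = 5.89e-05), and its partner Nxt1 fell by 1.06 (SE 0.22, adjusted p = 0.000974).

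**Figure D5:**
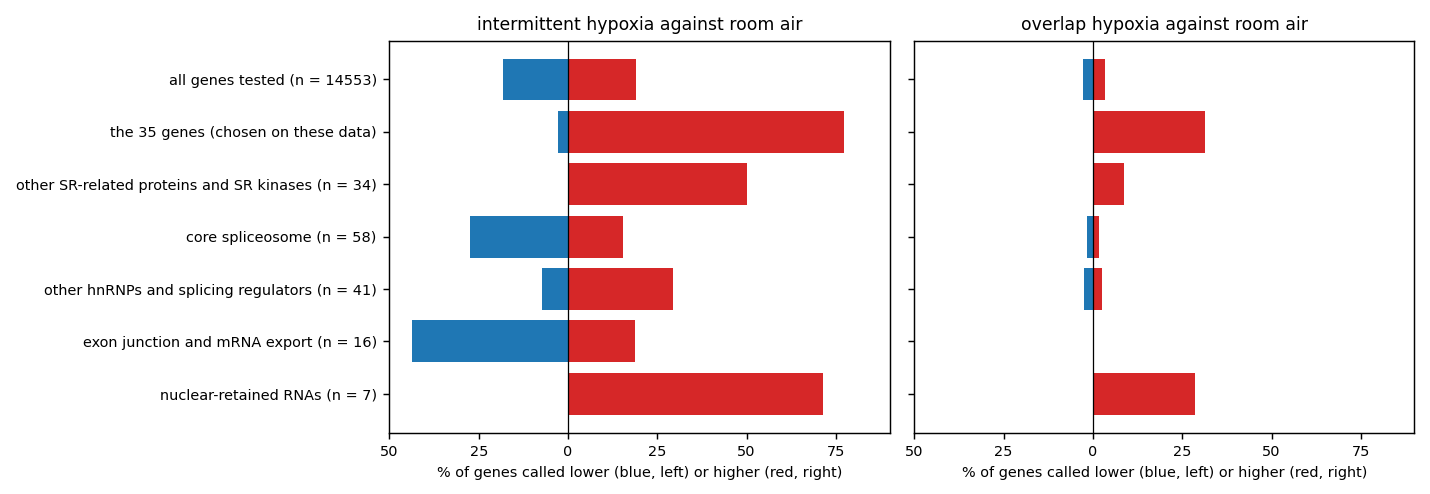
Percent of the genes of each list called lower (left, blue) or higher (right, red) in the intermittent and the overlap group relative to room air, with the number of genes tested. The 35 genes were chosen on these data and are drawn for reference. The 4 other splicing lists were also chosen with earlier results of these data known. Of these 4, the SR-related proteins and kinases have 17 of 34 higher and 0 lower in intermittent hypoxia and the exon junction and export genes 3 and 7 of 16.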

How the data were processed

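Liver RNA of 16 mouse libraries was analysed from the table of expected counts per gene deposited by the authors, which divide reads of ambiguous origin among genes by estimation, so that 49.3% of the values above 0 were not whole. RSEM, Bowtie 1.3.0 and the build GRCm38 are named per the submitters' processing notes. The sources used here do not give read length, strand setting or annotation release, and libraries were made with a TruSeq RNA kit from total RNA per the labels' protocols. GENCODE M21 of the same build gave symbols, coordinates and lengths for 55227 of 55487 identifiers, and 260 had none, with no more than 0.0313% of the counts of any library.

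Expected counts were rounded to whole numbers and filtered with filterByExpr of edgeR 4.0.16 (R 4.3.3), which left 14553 genes. Libraries were scaled by TMM, and the 16 entered a robust quasi-likelihood fit with a coefficient for each group. A call is an adjusted p (Benjamini-Hochberg, over all genes) under 0.05. CPM are TMM-scaled, log2 values come from this fit, and their standard errors were derived from the log2 value and the quasi-likelihood F statistic. The pipeline was tested on simulated counts with equal spread in all groups and no shift in ribosomal RNA or mitochondrial share. That test therefore does not cover these features of the data.

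The 35 members, the other gene lists and the tests were chosen with earlier results of these data known, so members are described without p-values. The p-values given for genes of the other lists are descriptive and not independent evidence. Values in every library are given for the 2 members per role with the lowest p for any difference among the 4 groups, and for any member called against the direction of most. From each other splicing list, up to 3 genes with the lowest p in each direction were eligible to be named. One listed symbol, Rbm23, was not matched. The share of a gene's 50-base words found in transcripts of other genes marks counts that depend on how reads were shared out.

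Replicate numbers did not pair the libraries. The 24 pairs inside a group differed far beyond sampling noise (chi-square divided by its degrees of freedom 61.1 to 477.2), so none were duplicates. Exact permutation tests, two-sided, served for library measures. Alternatives were scaling (DESeq2 size factors, upper quartile, without ribosomal, mitochondrial and major urinary protein genes), filters (at least 1 count, or 1 CPM in 8 libraries), DESeq2 1.42.0, limma-voom (limma 3.58.1), fits of the compared groups only, ribosomal and mitochondrial covariates, length and GC offsets, a replicate block, and leaving out each library.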

Additional observations from a re-analysis of the deposited data

Results flagged for a closer look

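Of 152 sets of 4 libraries looked at (35 members and 3 library measures in 4 groups), 13 held a library far from the other 3, where chance alone gives about 1 in 20. Overlap hypoxia replicate 2 was the lowest for Srsf10, at 9.88 CPM (others 14.0 to 14.9), and for Luc7l, at 11.5 CPM (others 15.7 to 16.4), and the highest for Srsf9, at 13.6 CPM (others 9.09 to 9.25). Intermittent hypoxia replicate 2 was the highest for Luc7l3, at 19.2 CPM (others 12.2 to 13.0), for Pnn, at 11.4 CPM (others 7.63 to 8.24), and for Hnrnph1, at 51.2 CPM (others 34.2 to 36.9), and had the highest mitochondrial share of all libraries, 11.7%. Intermittent hypoxia replicate 4 was the lowest for Srrm2, at 31.0 CPM (others 48.1 to 51.0). Sustained hypoxia replicate 2, the deepest library, was the highest for Srsf1, at 18.5 CPM (others 14.5 to 15.1), for Ccnl2, at 31.7 CPM (others 19.3 to 21.4), and for Pnn, at 4.33 CPM (others 3.20 to 3.38). Room air replicate 1 was the highest for Srsf5, at 64.3 CPM (others 34.96 to 39.2), and for Srsf6, at 43.5 CPM (others 32.7 to 34.2), and room air replicate 3 was the highest for Srsf3, at 45.4 CPM (others 36.2 to 37.1).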

How the results depend on the processing

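Room air was the control of all 3 exposures, and alternatives are given where they moved a count by over 1.5 times or a median by more than the spread between libraries. The cause of these moves was not tested, and the compared-groups fits also rest on fewer libraries. For the members higher in intermittent hypoxia than in room air (27, with 1 lower), the count was 11 with the ribosomal RNA covariate and 0 with the mitochondrial one (0 lower), and 24 to 28 without single libraries (1 lower in each). Over all genes 2109 to 2834 were higher without single libraries. The median of 0.82 became 0.47 and 0.21 with these covariates, 0.62 with length and GC offsets and 0.62 with the replicate block and offsets, and 0.74 to 0.87 without single libraries. In overlap hypoxia the 11 higher became 6 in the fit of the compared groups only, 3 and 0 with the ribosomal and mitochondrial covariates, 6 with offsets and 2 to 15 without single libraries. The median of 0.38 became 0.10 with the mitochondrial covariate and 0.25 to 0.49 without single libraries. In sustained hypoxia limma-voom called 1 member and 1 other splicing gene lower (0.859% of all genes). The median of -0.17 became -0.0060 with offsets, -0.0016 with the block and offsets and -0.19 to -0.10 without single libraries.

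For overlap against sustained hypoxia, the 3 higher became 6 (upper quartile), 10 (at least 1 count), 8 (1 CPM in 8 libraries), 16 (DESeq2), 17 (limma-voom), 0 (compared groups only, either covariate, or offsets), 6 (replicate block), 1 (block and offsets) and 0 to 21 without single libraries. Its median of 0.49 became 0.26 and 0.17 with the ribosomal and mitochondrial covariates and 0.41 to 0.59 without single libraries. Over all genes the 20 higher in that comparison ranged from 0 to 843 across these settings. For overlap against intermittent hypoxia, the 11 lower became 19 (DESeq2), 0 (compared groups only or either covariate), 7 (offsets) and 0 to 13 without single libraries. The median of -0.53 became -0.20 with the mitochondrial covariate and -0.66 to -0.41 without single libraries. Over all genes the 429 lower became 805 (DESeq2), 0 (compared groups only), 12 and 0 (covariates), 271 (offsets) and 9 to 573 without single libraries. For intermittent against sustained hypoxia, the 31 higher became 0 with either covariate and 30 to 31 without single libraries, and 1 was lower with offsets and with the block and offsets. Over all genes the 2836 higher in that comparison became 2272 to 2959 without single libraries. The median of 1.00 became 0.57 and 0.35 with the covariates, 0.65 with offsets, 0.65 with the block and offsets and 0.90 to 1.02 without single libraries.

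Of other splicing genes in intermittent hypoxia, 41 rising and 26 falling became 6 and 6 with the ribosomal covariate, 0 and 0 with the mitochondrial one, and 34 to 43 and 21 to 28 without single libraries. In overlap hypoxia, 5 and 2 became 10 rising (upper quartile), 9 (scaled without ribosomal, mitochondrial and major urinary protein genes), 8 (at least 1 count), 11 (1 CPM in 8 libraries), 12 and 4 (DESeq2), 9 and 5 (limma-voom), 3 and 1 (compared groups only), 1 rising (ribosomal covariate), 0 and 0 (mitochondrial covariate), 2 rising (offsets), 10 rising (replicate block), 3 and 5 (block and offsets), and 0 to 11 and 0 to 3 without single libraries.

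Among called members, the direction turned for Prpf4b (-0.13) and Rbm25 (-0.12) in intermittent hypoxia and for Luc7l3 (-0.10) and Rbm25 (-0.080) in intermittent against sustained hypoxia, all with the mitochondrial covariate, and for Clk3 in intermittent hypoxia with offsets (-0.063) and with the block and offsets (-0.049). Over all genes, the calls in overlap hypoxia, 496 higher and 420 lower, became 576 and 309 with upper-quartile scaling, and those in intermittent hypoxia, 2744 and 2660, became 1927 and 2913 with offsets, 622 and 715 with the ribosomal covariate and 5 and 3 with the mitochondrial one, which left 9 and 11 in overlap hypoxia. Same-numbered libraries had correlated deviations of -0.10 to 0.18, over 0.1 in 4 of 24 pairs, so the numbers were not taken as pairs. The shallowest library, overlap hypoxia replicate 3, had 10940275 counts, and the effect of its depth on low members was not tested.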
